A study of Drosophila melanogaster with 20 samples.

Results

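This comparison sets 5 brain libraries of male *Drosophila melanogaster* against 5 brain libraries of females, each sex on its own low-protein, high-carbohydrate diet (LPHC). The 10 libraries were taken by their labels from 20 in the study and all entered the test; the other 10, males and females on 1:1 diets (HPLC), served as a second comparison of the sexes. All flies were wild-type W1118, 4 to 7 days old. The male LPHC food had protein to carbohydrate of 0:1 at 180 g/L and the female LPHC food 1:2 at 360 g/L, so by the labels the male food held no protein and the female food some. The HPLC foods were 1:1, at 180 g/L for males and at 90 g/L for females. Sex, diet recipe and deposited table (1 for each sex) therefore changed together and cannot be told apart in any difference below. Neither the number of brains in a library nor separate rearing of the libraries of 1 group is stated in the labels. The spread that the p-values measure may therefore be technical.

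In flies, sex is set in each cell by a splicing cascade: in females the RNA-binding protein Sxl directs the splicing of tra, and tra with tra2 directs that of dsx and fru. The resulting transcription factors shape courtship neurons and tissues such as the fat body, the counterpart of liver and adipose tissue, where the female form of dsx drives the yolk protein genes. In males the MSL complex, formed around msl-2, whose protein Sxl keeps from being made in females, raises transcription of the single X chromosome. The fat body also surrounds the brain in the head, senses protein and sugar, and signals to the insulin-producing neurons.

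All 20 neuron and synapse markers were detected in both sexes, and markers of other tissues and cell types took shares of the reads that differed by sex. Neuron markers took 1.27% ± 0.126 (SD) of the reads of genes listed for both sexes in males and 0.499% ± 0.0540 in females. The 31 photoreceptor markers took 10.3% ± 0.686 and 6.23% ± 0.586, and the 25 muscle markers 1.11% ± 0.0777 and 0.467% ± 0.0488. The order was the opposite for 14 fat body markers, with 0.300% ± 0.0521 in males and 2.10% ± 0.171 in females, and for the yolk protein genes Yp1, Yp2 and Yp3, with 0.00860% ± 0.000689 and 7.74% ± 0.770. Glial markers were closer, at 0.286% ± 0.0103 and 0.334% ± 0.0122. For each of these 6 lists the 5 male and 5 female libraries did not overlap (exact permutation test, 2-sided, p = 0.00794 and 0.0086 after adjustment over 13 lists; no lower p is possible with 5 libraries of each sex). The part that these shares have in the gene differences was not tested, and in bulk RNA fewer cells of a type cannot be told from less RNA per cell. The sex labels fitted the Y chromosome: 11 Y-linked genes were listed in the male table, with 33 to 84 reads per male LPHC library, and none in the female table. The eye-colour gene w, which the W1118 strain lacks in part and which was picked out after its values were seen, was low in both sexes, from 56.0 to 94.5 in males and from 121 to 152 in females on the scale explained next. Depth was 14715340 to 30077141 reads per library.

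**Figure D1:**
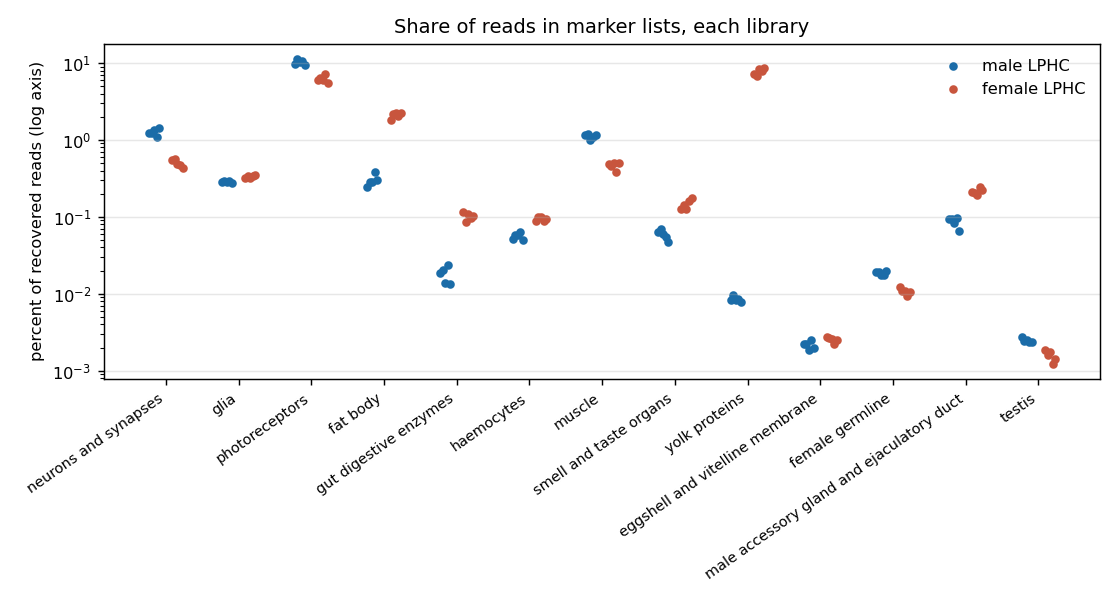
Share of recovered reads taken by each of 13 marker lists, in percent on a log axis, with a point for each of the 5 male (blue) and 5 female (red) LPHC libraries. Yolk protein genes took 7.74% of female reads on average and 0.00860% of male reads, while neuron and muscle markers took more than 2 times the share in males.

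Levels are given as normalised reads, that is, reads of a gene divided by a size factor that makes the typical gene equal across the 10 libraries, with the yolk protein genes left out of the factor. Differences are males minus females on the scale log2(normalised read + 1), so a positive value is higher in males, and n is 5 libraries for each sex. On that scale 7432 of 10149 genes tested (73.2%) passed a limma adjusted p of 0.05, of which 3731 (36.8%) were higher in males and 3701 (36.5%) in females. Every count of listed genes on LPHC below is to be read beside the shares of 36.8% and 36.5%. Large differences were mostly toward females: 1760 genes (17.3%) were at least 2-fold higher in females and 724 (7.13%) in males. The libraries of the sexes did not overlap for 6150 genes (60.6%). This balance depends on the scaling. With libraries brought to the same total without the yolk protein genes, 5816 genes were higher in males and 2566 in females, and with a factor from the neuron markers 326 and 7998. The median gene moved to 0.39 and −0.87 under these 2 scalings, against 0.02 here, so each difference below is relative to the typical gene.

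The 15 largest differences each way were taken among genes past the threshold, with groups that do not overlap and a mean of at least 50. For these genes a small p and the lack of overlap follow from the choice and are not separate results. Furthest toward females were the yolk genes Yp1 and Yp2 and the fat body storage gene Lsp2, given here with their relatives. Yp1, a yolk protein precursor, stood at 14.98, 26.2, 20.9, 22.5 and 41.3 in the male libraries and 654532, 604701, 745459, 668776 and 777743 in the female libraries. The difference of Yp1 was −14.76 on the log2 scale (SE 0.19, adjusted p = 1.21e-16). Yp2 differed by a similar amount (log2 −14.63, SE 0.13, adjusted p = 4.1e-18). Yp3 kept a clear level in males, 1498, 1816, 1528, 1594 and 1405, against 532867, 509208, 644106, 668948 and 677807 in females (log2 −8.59, SE 0.10, adjusted p = 9.29e-17). Yp1 and Yp2 are neighbours on the X and share regulatory DNA, and their mean male levels were 25.2 ± 9.87 and 28.7 ± 6.30, while Yp3 had 1568 ± 154. Lsp2, a larval serum storage protein, had 1.25, 0, 0, 1.29 and 2.10 in the male libraries and 38502, 30234, 34342, 39893 and 43659 in the female libraries. The male values correspond to 6 reads in all 5 libraries (log2 −14.38, SE 0.27, adjusted p = 1.23e-14). Its relative Lsp1alpha had 2 reads over the male libraries and 1299 over the female ones, a ratio of 778.8 whose exact 95% interval, for counting error alone, ran from 215.2 to 6438.0. Lsp1beta had 74.4 ± 19.7 and 2748 ± 540.4 (log2 −5.21, SE 0.19, adjusted p = 6.69e-12).

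Signal and metabolic genes were also among the largest female excesses, and fit, tobi, CG10814 and Obp99a lay beyond Yp3. The gene fit, which encodes a protein that the female fat body releases after protein feeding and that curbs protein appetite, had 4.99, 19.1, 27.6, 28.3 and 20.3 in the male libraries and 28538, 25776, 32189.6, 34969 and 36351 in the female libraries. Male levels were low in every library, and lowest in replicate 1 (log2 −10.73, SE 0.33, adjusted p = 1.69e-12). The insulin-responsive glucosidase gene tobi had 63.7, 50.1, 68.6, 61.1 and 56.7 in the male libraries and 32631, 38734, 34527, 52053 and 39377 in the female libraries (log2 −9.33, SE 0.12, adjusted p = 1.21e-16). CG10814, listed by RefSeq as a gamma-butyrobetaine hydroxylase, the enzyme of the last step of carnitine synthesis, had 1.25, 9.54, 1.90, 8.36 and 5.60 in the male libraries and 11737, 8820.3, 12967, 12271 and 12340.2 in the female libraries (log2 −11.08, SE 0.35, adjusted p = 2.32e-12). The odorant-binding protein gene Obp99a had 2.50, 2.38, 1.90, 2.57 and 2.80 in the male libraries and 1730.2, 1774, 1949.5, 2484 and 2384 in the female libraries (log2 −9.22, SE 0.14, adjusted p = 6.64e-16). The other genes among the 15 largest female excesses were hll (−8.26), CG16898 (−8.13), CG1979 (−7.72), CG10621 (−7.49), CG3699 (−7.34), which RefSeq lists as DECR2, a reductase of fatty acid oxidation, and CG31296 (−7.15). Exons of fit, tobi, hll, Yp1 and Lsp2 overlap those of another gene in the reference annotation, and the counting is not stated to use strand. For fit an overlapping gene, asRNA:CR45046, lies on the same strand, so strand alone would not separate their reads.

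Genes furthest toward males were fewer and less abundant. Cyp4d21, known as sxe1, a cytochrome P450 gene under the sex hierarchy in the male head fat body, had 202, 192, 256, 215 and 275 in the male libraries and 0.854, 2.86, 0, 5.92 and 0 in the female libraries. The female values stem from 10 reads (log2 6.70, SE 0.46, adjusted p = 7.49e-09). The gene phu, which RefSeq also lists as the alkaline phosphatase gene Alp3, had 4388, 10823, 5740.1, 13602 and 6809 in the male libraries and 82.8, 64.7, 75.3, 92.8 and 97.8 in the female libraries. Its male libraries spread over a wide range (log2 6.52, SE 0.25, adjusted p = 1.27e-11). CNMa, which encodes a neuropeptide that gut cells also release when essential amino acids are lacking, had 319.7, 399, 444, 556 and 520.0 in the male libraries and 43.6, 26.7, 40.8, 47.4 and 43.1 in the female libraries (log2 3.44, SE 0.17, adjusted p = 2.5e-10). Muc14A, a mucin gene on the X, had 155, 139.5, 163, 125 and 149 in the male libraries and 7.69, 10.5, 3.14, 3.95 and 6.99 in the female libraries (log2 4.40, SE 0.26, adjusted p = 1.33e-09). The X-linked channel gene brv3, of the brivido family, had 116, 106, 99.0, 107 and 105 in the male libraries and 7.69, 12.4, 9.41, 0.987 and 8.15 in the female libraries; its exons overlap those of Seipin on the opposite strand, whose mean level was 242 in males and 446 in females (log2 3.86, SE 0.40, adjusted p = 6.27e-07). The odorant receptor gene Or19b had 70.3 ± 7.21 and 4.17 ± 1.99 (log2 3.87, SE 0.28, adjusted p = 1.44e-08), with the caution that it has a near-identical neighbour, Or19a, between which counting could split reads. The rest of the 15 were CG33093 (4.41), CG6793 (4.03), pon (3.20), whose product places the fate determinant Numb in dividing neural precursors, CG1503 (3.12), CG17267 (2.77, overlapped by Cdk2 on the opposite strand), the muscle gene TpnC41C (2.75) and CG46492 (2.35). The other two of these, png, a kinase of egg activation (2.94), and fs(1)N, an eggshell gene (2.41), are known for the female germline and were higher in males.

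**Figure D2:**
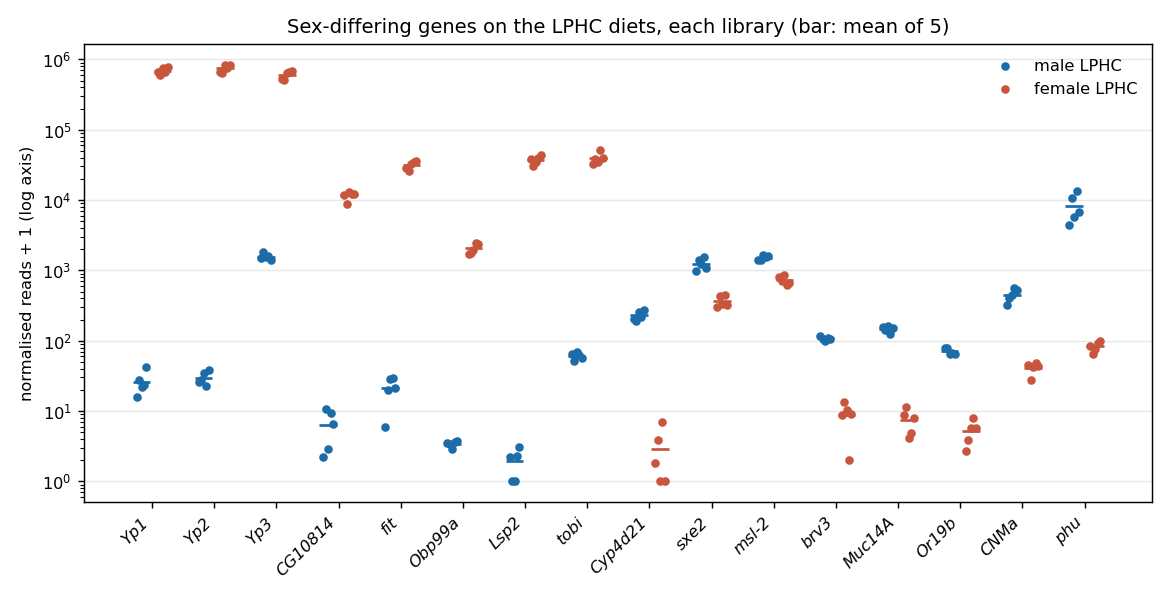
Normalised reads + 1 on a log axis for 16 genes, with a point for each male (blue) and female (red) LPHC library and a bar at the mean of 5. Yp1 and Yp2 differ by more than 14 on the log2 scale, msl-2 by about 2-fold, and the male phu values run from 4388 to 13602.

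Of 7 dosage compensation genes, 5 were higher in males (36.8% of all genes tested were) and 0 lower, with a median of 0.73 that turned to −0.16 with the neuron-marker factor. The male-limiting subunit gene msl-2 had 1411, 1402, 1632, 1552 and 1583 in the male libraries and 798, 705, 845, 626 and 669.5 in the female libraries. All male libraries were above all female ones (log2 1.06, SE 0.09, adjusted p = 5.26e-08). The partner subunit genes msl-3 (0.86, adjusted p = 3.62e-06), mle, a helicase (0.77, adjusted p = 9.77e-07), mof, an acetyltransferase of histone H4 (0.73, adjusted p = 0.000333), and msl-1, the scaffold (0.33, adjusted p = 0.00322), were higher by less. With the neuron-marker factor these 4 turned to −0.03, −0.12, −0.16 and −0.56, and msl-2 stood at 0.17 and was no longer called (adjusted p = 0.177). Clamp, which recruits the complex to the X, stood at 0.10 (adjusted p = 0.147) and the kinase gene JIL-1 at −0.12 (adjusted p = 0.233).

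Of 17 sex determination genes, 10 were higher in males and 2 in females (median 0.37, and −0.52 with the neuron-marker factor). Over all genes tested 36.8% were higher in males and 36.5% in females. Ythdc1, the nuclear reader of the methylated adenosine that aids Sxl splicing, had 12671, 9919, 11613, 11493 and 12419 in the male libraries and 6389, 5113, 5909.7, 4728 and 5196 in the female libraries (log2 1.09, SE 0.09, adjusted p = 7.52e-08). Other genes of that methylation machinery, Flacc (0.77) and fl(2)d (0.44), and her (0.54), a regulator of Sxl, were also higher in males, but with the neuron-marker factor they turned to −0.12, −0.45 and −0.35, and Ythdc1 was then at 0.20 and not called (adjusted p = 0.126). Of the cascade itself, picked out after their values were seen, tra was 709 ± 87.9 in males and 474 ± 40.0 in females (log2 0.58, SE 0.09, adjusted p = 6.35e-05). The gene dsx was 1182 ± 114 and 1701 ± 178 (log2 −0.52, SE 0.09, adjusted p = 6.58e-05), and fru 3299 ± 429 and 2577 ± 468 (log2 0.37, SE 0.12, adjusted p = 0.0135). Sxl was 6135 ± 527 and 7153 ± 1126 (log2 −0.21, SE 0.11, adjusted p = 0.0861), and without female replicate 4 it stood at −0.31 (adjusted p = 0.00461). With the neuron-marker factor tra stood at −0.32 and fru at −0.53; dsx stood at −0.16 (adjusted p = 0.115) with libraries at the same total. These are sums over all transcripts of a gene, and the sex-specific splice forms of Sxl, tra, dsx and fru were not analysed here.

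Among 10 genes known to act under the hierarchy in head and fat body, 3 were higher in males and 5 in females, beside 36.8% and 36.5% of all genes tested. With 10 genes these counts do not set the list apart from all genes. Their median of −1.86 lay between the 2 sets. It moved to between −3.51 and −3.78 when any male library was left out, because Cyp4d21 then no longer passed the filter on low values and 9 genes remained. Beside Cyp4d21, the lipase-like gene sxe2 had 977, 1414, 1214, 1563 and 1083 in the male libraries and 296, 425, 331, 443 and 323 in the female libraries (log2 1.78, SE 0.14, adjusted p = 3.25e-08). The abdominal pigmentation gene bab1 was also higher in males (log2 1.07, SE 0.11, adjusted p = 7.93e-07; 0.18 and not called with the neuron-marker factor), while bab2 stood at 0.08 (adjusted p = 0.521). The odorant-binding protein gene Obp99b was higher in females, with 461 ± 164 in males and 5521 ± 962 in females (log2 −3.63, SE 0.20, adjusted p = 5.89e-10). The takeout gene, to, which male head fat body makes for courtship, was 22198 ± 4209 and 23675 ± 5472 (log2 −0.09, adjusted p = 0.635); it stood at 0.03 without female replicate 4 and at 0.06 without male replicate 1.

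Of 16 genes of courtship and mating circuits, 13 were higher in males and 2 in females (median 0.76, and −0.13 with the neuron-marker factor). Poxn, a transcription factor gene of taste bristles and courtship, was 105 ± 14.7 in males and 37.5 ± 2.82 in females (log2 1.45, SE 0.13, adjusted p = 1.76e-07). The peptide genes NPF (1.25), Dsk (1.09) and Dh44 (0.56) were higher in males as well, but with the neuron-marker factor Dh44 turned to −0.33 and Dsk, at 0.19, was not called.

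The X chromosome as a whole did not stand off from the large autosome arms. Of 1676 X-linked genes tested, 606 (36.2%) were higher in males and 631 (37.6%) in females, and their median of 0.01 lay within the range of the 4 large autosome arms, −0.03 to 0.04. Among the steepest male excesses X-linked genes were common: 125 of 724 genes at least 2-fold higher in males were X-linked (17.3%), 18 of 45 at least 4-fold (40.0%) and 9 of 16 at least 8-fold (56.2%), beside 16.5% of all genes tested. Of 744 genes at least 4-fold higher in females 102 (13.7%) were X-linked. Muc14A, brv3, Or19b, pon, CG1503, png and fs(1)N are among the X-linked genes with large male excesses, and Yp1, Yp2, Yp3 and Lsp1alpha among those with large female excesses. The small chromosome 4 differed most, with 60 of 90 genes (66.7%) higher in males, 14 (15.6%) in females and a median of 0.45. On the HPLC diets its median was 0.13. No test was run on arms.

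**Figure D3:**
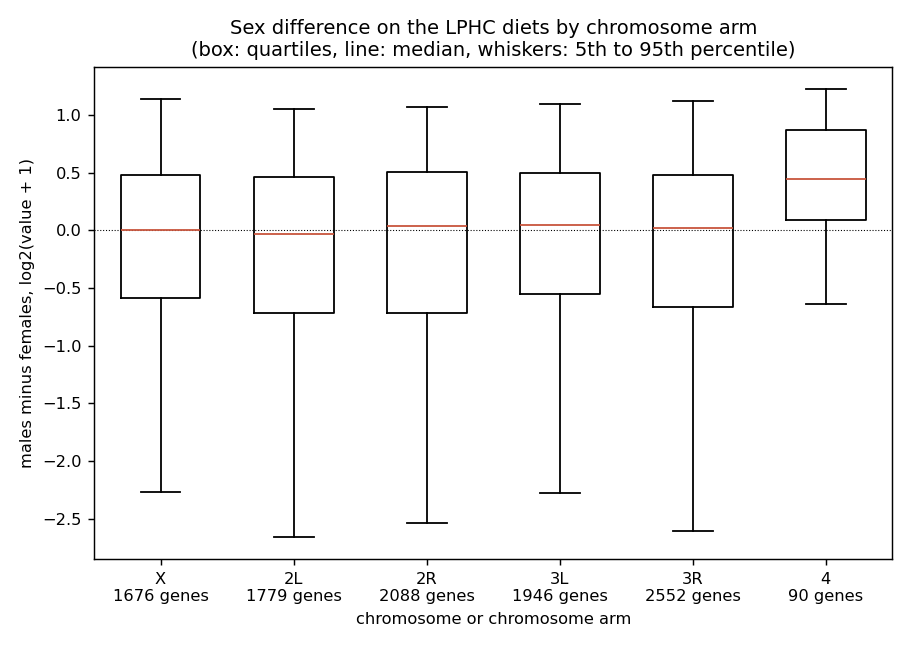
Sex difference on the LPHC diets, males minus females on the log2(normalised reads + 1) scale, by chromosome arm; boxes span the quartiles, the red line is the median and whiskers run from the 5th to the 95th percentile. The medians of X and the 4 large autosome arms lie between −0.03 and 0.04 and that of chromosome 4 at 0.45.

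Fat body markers and genes of lipid metabolism were higher in females nearly throughout. Of 14 fat body markers 11 were tested and 11 were higher in females (median −3.15, against 0.02 for all genes tested, of which 36.5% were higher in females). Tsf1, an iron carrier secreted into the blood, had 5309.6, 5272, 6240.0, 6089 and 5027 in the male libraries and 129876, 153832, 158203, 161337 and 170682 in the female libraries (log2 −4.79, SE 0.09, adjusted p = 1.82e-14). Of 16 fatty acid and triglyceride synthesis genes 15 were higher in females and 0 in males (median −2.04). They include AcCoAS, which makes acetyl-CoA from acetate (−3.45), FASN1, a fatty acid synthase (−3.25), Desat1, a desaturase (−2.44), and ATPCL, the ATP citrate lyase (−2.19). The opposing pathway had the same direction, with 18 of 18 lipolysis and fatty acid oxidation genes higher in females (median −2.05). The triglyceride lipase gene bmm was 2477 ± 215 in males and 14331 ± 751 in females (log2 −2.53, SE 0.07, adjusted p = 7.75e-13), and Arc42 (−2.78), Acox57D-p (−2.26) and CRAT (−2.06) followed.

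Of 37 genes of sugar digestion, glycolysis and storage, 33 were higher in females and 1 in males (median −1.07). Men, the malic enzyme that supplies NADPH for lipid synthesis, had 4952, 4432, 4659, 4650.0 and 4334 in the male libraries and 75817, 79563, 82204, 82834 and 79495 in the female libraries (log2 −4.12, SE 0.07, adjusted p = 1.9e-15). The polyol enzyme gene Sodh-1 (−4.89) and the gluconeogenic gene fbp (−3.68) were likewise higher in females, as were the amylase genes Amy-p (−3.72) and Amy-d (−2.33), near-identical copies between which counting could split reads. For amino acid breakdown 19 of 26 genes were higher in females and 4 in males (median −1.60). Those with the smallest p were the serine and folate genes Shmt, with 1090.0 ± 199 in males and 30585 ± 3544 in females (log2 −4.82, SE 0.12, adjusted p = 2.38e-13), and pug (−4.74), then the ornithine aminotransferase gene Oat (−4.56) and Srr, a serine racemase (−3.13). In the list of ATF4, serine synthesis and tRNA charging 18 of 29 were higher in females and 4 in males; the former include the serine synthesis genes CG11899 (−3.74), aay (−2.75) and CG6287 (−1.80) and the folate gene Nmdmc (−3.47). All 7 tested genes of cuticular hydrocarbon synthesis, the source of contact pheromones in oenocytes, were higher in females, among them FASN2 (−5.05) and the elongase gene bond (−1.23); 12 were listed and the median was −1.57.

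Detoxification families followed the same direction. Of 35 glutathione S-transferase genes 29 were higher in females and 3 in males (median −1.72). GstE7 had 25.0, 31.0, 26.7, 34.1 and 17.5 in the male libraries and 649, 624, 618, 559.6 and 665 in the female libraries (log2 −4.52, SE 0.15, adjusted p = 3.16e-12), and GstE6 (−3.18), GstD9 (−2.59) and GstS1 (−2.07) were higher in females too. Of 77 cytochrome P450 genes tested 53 were higher in females, among them Cyp309a2 (−5.16) and Cyp309a1 (−5.14), and 6 in males, Cyp4d21 among them. Of 23 UDP-glycosyltransferase genes 17 were higher in females, such as Ugt37A3 (−6.46) and Ugt35C1 (−3.79), and 2 in males. Odorant-binding protein genes were more mixed, with 16 of 27 higher in females, among them Obp56d (−3.19), Obp44a (−3.18) and Obp99c (−2.90), and 6 in males.

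Of 84 cytosolic ribosomal protein genes 82 were tested, and 80 were higher in females (median −1.08). Over all genes tested 36.8% were higher in males and 36.5% in females. RpS5a (−1.66), RpS13 (−1.56), RpS29 (−1.48) and RpL30 (−1.41) had the smallest p. Of 37 proteasome subunit genes 31 were higher in females and 3 in males (median −0.79), Prosalpha4 (−1.21) and Rpn6 (−1.16) among the former. Nuclear-encoded respiratory chain subunits had a median at the typical gene (−0.0015). Of 69 tested, 15 were higher in males, 10 in females and 44 not called, both smaller shares than over all genes. Of 23 ribosome biogenesis genes 11 were higher in females and 1 in males (median −0.16, and 0.20 with libraries at the same total).

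Immune genes were higher in females: 28 of 29 tested antimicrobial and other immune peptide genes, and none in males (median −1.96). AttA, an attacin with a near-identical copy, AttB, had 134, 119, 350.4, 89.4 and 118 in the male libraries and 9520.4, 3339, 4197, 3354 and 3872 in the female libraries (log2 −4.95, SE 0.34, adjusted p = 7.25e-09). Drs, which encodes the antifungal peptide drosomycin (−3.51), Listericin (−3.64) and the bomanin gene BomS4 (−1.99) showed the same order. Of 17 genes of microbe recognition and NF-kappaB signalling 14 were higher in females, among them the recognition protein genes PGRP-SB1 (−2.95) and PGRP-SA (−2.82), the Toll ligand gene spz (−1.79) and Rel, the transcription factor of the IMD pathway (−1.87). Haemocyte markers differed beside them, with 10 of 13 higher in females and a summed share of 0.0563% ± 0.00576 of reads in males and 0.0938% ± 0.00590 in females; the part of blood cells in the immune differences was not tested. The haemocyte and fat body factor gene srp was at −3.24.

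The humoral stress genes of the Turandot family varied among males, and 1 male library stood apart. TotA, a stress protein of the fat body, had 7441, 8538, 1463, 31004 and 5861 in the male libraries and 13232, 14614, 13871, 15367 and 19152 in the female libraries, and male replicate 4 exceeded every other library (log2 −1.11, SE 0.54, adjusted p = 0.0769). TotB (−2.61), TotM (−2.69) and the immune inhibitor gene Diedel (−2.92) passed the test toward females, while TotC (−0.75, adjusted p = 0.278) and TotX (−0.89, adjusted p = 0.0755) did not. Without male replicate 4 all of them did, with TotA at −1.64 (adjusted p = 0.00162), TotC at −1.30 (adjusted p = 0.0248), TotX at −1.39 (adjusted p = 7.92e-05), TotB at −3.12, TotM at −3.54 and Diedel at −4.07. Without male replicate 3 instead, TotA stood at −0.54 and TotC at −0.07. Diedel ranged from 5.71 to 1424 among male libraries. On the recovered reads edgeR called neither TotM (adjusted p = 0.234) nor Diedel (adjusted p = 0.672), DESeq2 did not call TotM (adjusted p = 0.32), and limma with robust moderation called neither (adjusted p = 0.0736 and 0.0723). Of the heat shock genes, 12 of 15 were higher in females and 2 in males (median −0.94). Hsp68 had 815, 590.3, 542, 749 and 525 in the male libraries and 3585, 6888, 2566, 3001 and 3064 in the female libraries, with the female libraries spread widely above the male ones (log2 −2.49, SE 0.22, adjusted p = 1.04e-07). The small chaperone genes Hsp26 (−2.24) and Hsp27 (−2.06) and, by less, their regulator Hsf (−0.39) were higher in females, Hsf being at −0.028 and not called at the same total without the yolk protein genes and at 0.088 with them.

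Neuronal genes were higher in males relative to the typical gene, 19 of 20 neuron and synapse markers with a median of 0.92, which the factor made from these same markers brings to 0.027. The transmitter transporter genes VAChT, for acetylcholine, and VGAT, for GABA, were at 1.14 and 1.08, the GABA synthesis gene Gad1 at 1.06 and the RNA-binding protein gene fne at 1.11. Of 39 neuropeptide genes, peptide hormones included, 32 were tested, and 24 were higher in males and 5 in females (median 0.89, or −0.0043 with the neuron-marker factor). Beside CNMa, the largest, Mip, which encodes the myoinhibitory peptides, had 7842, 6835, 7099.8, 6123 and 7192 in the male libraries and 2965, 2942, 2916, 3133 and 2938 in the female libraries (log2 1.23, SE 0.07, adjusted p = 8.52e-10). Of 32 neuropeptide receptor genes 26 were higher in males and 3 in females (median 0.84, or −0.04 with that factor). Dh44-R1 (1.23), AstC-R2 (1.20) and CCKLR-17D3 (1.04) were higher in males, and AkhR, the fat body receptor of adipokinetic hormone, in females (log2 −1.94, SE 0.11, adjusted p = 7.79e-10).

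Of 26 genes of biogenic amine synthesis, transport and reception 22 were higher in males and 2 in females (median 0.94, or 0.045 with the neuron-marker factor). Ddc, the decarboxylase that yields dopamine and serotonin, had 10945, 9299, 9653, 9683 and 10593 in the male libraries and 4754, 4182, 4389.9, 4569 and 4239.5 in the female libraries (log2 1.18, SE 0.07, adjusted p = 1.12e-09). The step before it had the opposite order: ple, the tyrosine hydroxylase gene, which also acts in cuticle, had 1588, 1219, 1438, 1099 and 1384 in the male libraries and 5299, 5003, 5224, 3679 and 5538 in the female libraries (log2 −1.88, SE 0.12, adjusted p = 3.15e-09). The receptor genes DopEcR (1.03) and Octbeta3R (1.04) were higher in males, though not called with that factor (0.14 and 0.15). Of 24 sleep genes 16 were higher in males and 4 in females (median 0.45, and −0.44 with the neuron-marker factor). The dopamine receptor gene Dop1R2 (1.29), the serotonin receptor gene 5-HT1A (0.99) and qvr, or sleepless, a regulator of potassium channels (0.91), were higher in males and the growth factor receptor gene Egfr (−1.75) in females. Of 12 circadian clock genes 2 were higher in males and 4 in females, and 6 were not called, beside 36.8% and 36.5% of all genes tested higher in males and females. The photoreceptor protein gene cry (−0.84), vri (−0.96), cwo (−0.72) and cyc (−0.50) were higher in females, though cyc was not called at the same total (−0.016 with and −0.13 without the yolk protein genes) nor cwo with them (−0.24); the kinase gene dco (0.31) and the clock output peptide gene Pdf (0.70) were higher in males, but stood at −0.58 and −0.19 with the neuron-marker factor.

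Of 10 genes listed as nutrient signals, 7 were higher in females and 0 in males (median −1.72). The tissue that made these transcripts was not tested. CCHa2, a sugar-induced peptide that promotes insulin secretion, had 458, 446, 404, 471 and 577 in the male libraries and 13767, 14459, 12993, 16503 and 15339.7 in the female libraries (log2 −4.96, SE 0.09, adjusted p = 1.23e-14). Gbp2 (−2.60) and Gbp1 (−0.86), growth-blocking peptides induced by amino acids, the cytokine gene upd2 (−2.91), the insulin-like peptide gene Ilp6 (−1.83) and Lst, or limostatin, which curbs insulin release (−1.60), had the same order. Insulin and TOR signalling as a whole was divided, with 6 of 27 genes higher in males, 9 in females and 12 not called (median −0.01). Over all genes tested 36.8% were higher in males and 36.5% in females. Ilp5, made by the insulin-producing neurons, had 106, 77.5, 88.6, 83.6 and 93.1 in the male libraries and 599.5, 570.1, 674, 789.5 and 649 in the female libraries (log2 −2.86, SE 0.11, adjusted p = 1.29e-11). Its neighbour in those neurons Ilp3, picked out after its values were seen, was 463 ± 102 and 522 ± 51.0 (log2 −0.19, adjusted p = 0.171), and without male replicate 1 it stood at −0.31 (adjusted p = 0.00877). The transcription factor gene foxo (−0.77) and the kinase gene S6k (−0.83) were higher in females.

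Muscle markers were higher in males for 18 of 24 genes and lower for 1 (median 0.90, or 0.0071 with the neuron-marker factor). TpnC41C, a troponin C, had 1008, 1240.2, 764, 971 and 943 in the male libraries and 138, 109, 154, 167 and 161 in the female libraries (log2 2.75, SE 0.13, adjusted p = 1.66e-10); Act87E (1.86), Act57B (1.70) and Zasp52 (1.07) followed. Glial markers had the reverse balance, with 11 of 16 higher in females and 3 in males (median −0.68, or −0.20 and −0.32 at the same total with and without the yolk protein genes). On HPLC 7 were higher in males and 5 in females (median 0.20), and 9 of 16 interactions were called, all with more female excess on LPHC. Over all genes 52.2% of interactions were called, and 27% of genes were called in that direction. The 4 glial markers with the smallest p were all higher in females. They were the citrate transporter gene Indy (−2.36), the trehalose transporter gene Tret1-1 (−1.59), the glutamate transporter gene Eaat1 (−1.33) and loco (−0.76). Indy and Tret1-1 are known from fat body as well. The 3 glial markers higher in males had larger p and are not named, so these 4 do not stand for the whole list. Photoreceptor markers split, with 17 of 31 higher in males, 6 in females and a median of 0.30 that turned to −0.60 with the neuron-marker factor. Calx (0.91), inaE (0.91) and rdgC (0.67) of the light response were higher in males (not called at 0.022 and 0.017, and turned to −0.22, with that factor), and Rh2, the opsin of the ocelli, in females, at 161 ± 71.0 against 1378 ± 221 (log2 −3.17, SE 0.23, adjusted p = 1.25e-08). Of 18 genes of ecdysone and juvenile hormone 6 were higher in males and 4 in females, beside 36.8% and 36.5% of all genes tested. The ecdysone-activating enzyme gene shd was 152 ± 4.74 in males and 48.0 ± 12.2 in females (log2 1.68, SE 0.16, adjusted p = 2.17e-07), and the ecdysone-inactivating Cyp18a1 216 ± 18.0 and 1661 ± 179 (log2 −2.93, SE 0.09, adjusted p = 1.06e-12). The nuclear receptor gene Hr3 was at 1.31 and jhamt, of juvenile hormone synthesis, at −2.11.

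Genes known from the reproductive tract took few of the reads. Female germline markers took 0.0186% ± 0.00106 of reads in males and 0.0108% ± 0.00101 in females. Of 18 tested 8 were higher in males, such as png and del (1.07), and 4 in females, such as exu (−3.61) and swa (−2.79). The shares over all genes tested were 36.8% and 36.5%. Of 22 eggshell genes 8 were tested, 6 higher in females, yellow-g (−1.65) among them, and 1 in males. Markers of the male accessory gland and ejaculatory duct took more reads in females, 0.215% ± 0.0202 against 0.0862% ± 0.0129, among them EbpIII (−1.85) and Est-6 (−2.13), both known outside the duct too. On HPLC the order of that share was the opposite, 0.191% in males and 0.129% in females. Testis markers took 0.00248% ± 0.000162 in males and 0.00158% ± 0.000253 in females, and of 6 tested 3 were higher in males and 1 in females. Among genes listed for 1 sex only, the most read in males were vilya with 96 reads, CheB38b with 95, Su(Ste):CR42422 with 67, CG42299 with 61 and CG9682 with 54 over the 5 libraries. In females they were Dup99B, a seminal peptide gene, with 246, asRNA:CR45629 with 180, asRNA:CR45046, which overlaps fit on the same strand, with 139, CG6790 with 81 and ppk19 with 72. On HPLC the female libraries held 1, 88, 115, 2 and 37 reads of these genes, in that order.

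**Figure D4:**
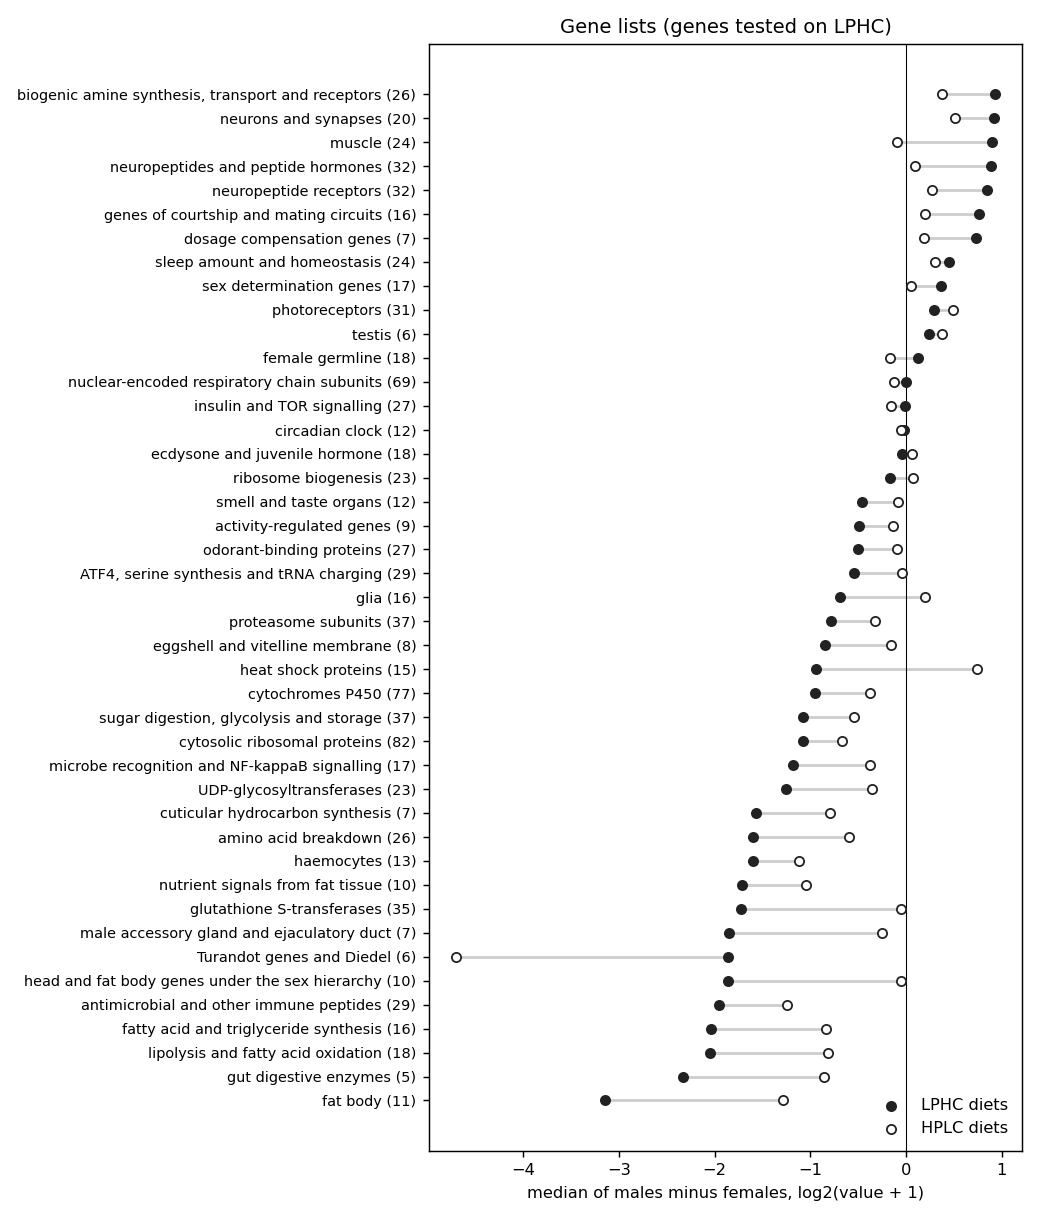
Median difference of the tested genes of each list, males minus females on the log2(normalised reads + 1) scale, on the LPHC diets (filled) and the HPLC diets (open), with the number of genes tested on LPHC in brackets; lists with fewer than 4 genes tested, such as the 3 yolk protein genes (median −14.63), are not drawn. Of the lists drawn, fat body genes lie furthest toward females on LPHC at −3.15 and biogenic amine genes furthest toward males at 0.94, and heat shock genes lie on opposite sides of 0 in the 2 diet pairs.

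The sexes on the HPLC diets, which share no library with the comparison above, show which differences recur with another pair of recipes. There 5054 of 9941 genes (50.8%) passed the test, 2538 (25.5%) higher in males and 2516 (25.3%) in females. Of these 532 (5.35%) were at least 2-fold higher in females and 111 (1.12%) in males. Of 9884 genes tested in both, 7254 were called on LPHC and 5037 on HPLC. The 3908 called in the same direction are 53.9% of the LPHC calls and 77.6% of the HPLC calls; 364 were called in opposite directions. In 3382 of the 3908 the difference was larger on LPHC. At least 2-fold in the same direction in both were 41 genes toward males and 419 toward females. Across the 9884 genes Pearson's r between the 2 differences was 0.61 and Spearman's rho 0.64, as a description, since genes of a library are not independent. A limma contrast of the 2 sex differences over all 20 libraries called 5414 of 10362 genes (52.2%), 2621 (25.3%) toward males on LPHC and 2793 (27%) toward females.

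Genes tied to the sex hierarchy did not all recur with the HPLC diets. There msl-2 stood at 1.03, against 1.06 on LPHC (interaction 0.03, SE 0.10, adjusted p = 0.837). Yp1 (−13.06), Yp2 (−13.75), Yp3 (−9.51), Cyp4d21 (7.64) and, from the largest male excesses, brv3 (3.54) and CG6793 (3.10) were called on HPLC in the same direction, and over all 20 libraries the interaction was called for none of them (adjusted p from 0.0563 for Yp3 to 0.625 for brv3). Among the male HPLC libraries Yp1 ranged from 20.2 to 10952 and Yp3 from 1242 to 6031, the highest in replicate 4. Without that library the interaction was −0.03 for Yp1 (adjusted p = 0.945), 0.64 for Yp2 (adjusted p = 0.0173) and 1.37 for Yp3 (adjusted p = 1.13e-07), so that the female excess of Yp2 and Yp3 was then smaller on LPHC. Of the cascade itself, tra stood at −0.04 on HPLC (adjusted p = 0.738, interaction 0.62 with adjusted p = 0.000614), dsx at −0.03 (adjusted p = 0.8, interaction −0.49 with adjusted p = 0.00466) and fru at 0.15 (adjusted p = 0.211, interaction adjusted p = 0.285). Of the 17 sex determination genes 5 were higher in males on HPLC, 1 was higher in females and 11 were not called (median 0.05). Over all genes tested on HPLC 25.5% were higher in males and 25.3% in females, so the count toward males was near that share. Muc14A (3.48 on HPLC, interaction adjusted p = 0.0463), Obp99a (−7.71, interaction adjusted p = 0.0028) and CG10814 (−8.73, interaction adjusted p = 0.00921) kept their direction with a smaller difference on HPLC. The gene fit stood at −4.70 on HPLC, against −10.73 on LPHC (interaction −6.02, adjusted p = 1.03e-11). The male-biased gene sxe2 differed more on HPLC, at 3.37 (interaction −1.59, adjusted p = 1.07e-06), and to was called on HPLC, at 1.63 (interaction −1.71, adjusted p = 5.44e-06).

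Other large LPHC differences were smaller or of the other sign on HPLC. Lsp2 was 10899 ± 1196 in males and 38797 ± 5437 in females on HPLC (log2 −1.83), where levels are normalised within the HPLC libraries, and its interaction was −12.49 (adjusted p = 5.8e-19). For tobi the HPLC difference was −1.20 (interaction −8.12, adjusted p = 7.08e-17). The 10 genes with the smallest interaction p and a mean of at least 50 were CG10621, CG16898, CG1979, Lsp2, Men, tobi, CG32444, CG7675, CG10361 and CG9733, and all had more female excess on LPHC. Of these CG16898 (0.86), CG1979 (0.34), CG7675 (0.53) and CG9733 (0.54), a serine protease gene per RefSeq, were called toward males on HPLC. CG32444, an aldose epimerase gene per RefSeq, stood at −6.08 on LPHC and −0.28 on HPLC, and CG10361, also named Gcat, at −4.88 and −0.73. On the male side phu stood at −0.53 on HPLC (interaction 7.04, adjusted p = 6.32e-14), CG33093 at −1.82 (interaction adjusted p = 2.85e-08), CNMa at 0.22 (interaction adjusted p = 3.69e-10) and TpnC41C at 0.32 (interaction adjusted p = 1.43e-08).

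By list, 19 of 20 neuron markers were higher in males on HPLC (median 0.51) and 10 of 11 fat body markers higher in females (median −1.29), both with smaller medians than on LPHC. Muscle markers had 4 higher and 5 lower of 23 (median −0.09), and glutathione S-transferases 6 higher and 10 lower of 31 (median −0.05). Over all genes tested on HPLC 25.5% were higher in males and 25.3% in females. Heat shock genes reversed: 11 of 15 were higher in males and 0 in females on HPLC (median 0.74), and Hsp68 stood at 0.66 (interaction −3.15, adjusted p = 2.37e-08). For the Turandot genes and Diedel all 6 were higher in females on HPLC (median −4.71), and all 6 interactions were called with the female excess smaller on LPHC; TotA was 2198 ± 652 in males and 45379 ± 15897 in females there. Obp44a changed sign, at 1.26 on HPLC and −3.18 on LPHC, and Ilp3 stood at −2.26 on HPLC (interaction 2.07, adjusted p = 1.37e-08). Clock genes cry (−0.03) and cyc (−0.07) were not called on HPLC, with interaction adjusted p of 1.08e-06 and 0.000329. The share of fat body and muscle markers differed less between the sexes on HPLC, at 1.29% and 2.18% of reads for fat body and 0.601% and 0.483% for muscle; the part of this in the interaction was not tested.

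**Figure D5:**
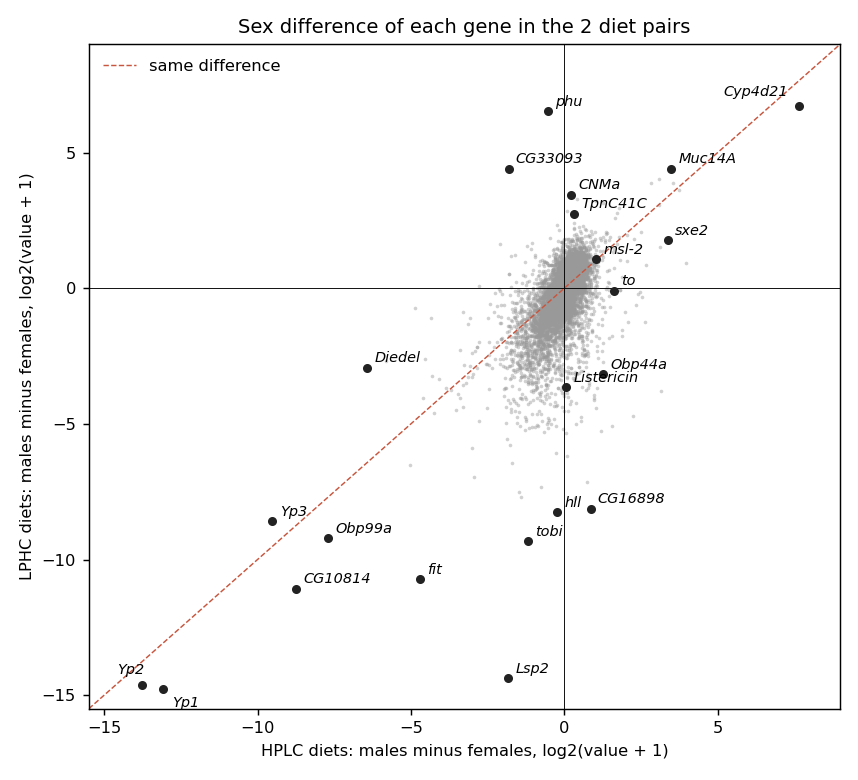
Sex difference of each of 9884 genes on the LPHC diets (vertical) against the HPLC diets (horizontal), males minus females on the log2(normalised reads + 1) scale, with 22 genes named and the dashed line marking equal differences. The gene msl-2 lies close to the line, while Yp1, Yp2 and Cyp4d21 lie off it but keep a large difference of the same sign in both diet pairs. Without male HPLC replicate 4 the HPLC differences of Yp1 and Yp2 were −14.72 and −15.26. Lsp2 and tobi, far below the line, and phu, far above it, differ by diet pair.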

How the data were processed

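RNA of fly brains was sequenced in 20 libraries, 5 for each sex and diet, of which the 10 LPHC libraries are the subject here. The deposited values are a normalised signal for each gene, with 1 table for each sex; by the tables' names they come from DESeq2, with long non-coding RNAs removed, though some antisense RNAs are listed. The submitters' processing notes name HISAT2 as aligner. For the counting tool, the build and the strand setting, the sources used here give nothing, and coordinates are left out. Every column was divided by its smallest value above 0, which gave whole reads for 100% of values within 0.01; 0 columns went unused. There are 12206 genes listed for males and 12015 listed for females, with 11780 shared, and the lowest sum of reads of a listed gene was 6 in each. Of 12441 names 12412 matched RefSeq.

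Recovered reads were divided by median-of-ratios factors, computed over the libraries of a fit without Yp1, Yp2 and Yp3. A gene was tested if at least 5 libraries had a value of 10 or higher. The test was limma 3.58.1 (R 4.3.3) with a mean-variance trend on log2(value + 1), 2-sided, with Benjamini-Hochberg adjustment over all genes and a threshold of 0.05; this scale understates changes of low genes. Exact permutation tests compared shares of reads. Alternatives were edgeR 4.0.16 and DESeq2 1.42.0 on the recovered reads, other pseudocounts, filters and scalings, robust moderation, all 20 libraries in 1 fit, a replicate block and leaving out each library. No pair of libraries agreed within sampling noise (lowest chi-square per degree of freedom 9.643). On reads simulated for the LPHC comparison (10169 genes tested) 90% of changes of log2 0.58 and 100% of those of log2 1 were found, against 0.1% of the genes left unchanged. The simulation altered 200 genes, none of low level, in random direction, and gave every gene the same dispersion. In the data 73.2% of genes were called and spread differed between genes, so these rates may not carry over. They do not bear on the choice of scaling.

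The comparison, its 45 gene lists and the genes looked at were chosen with earlier results of these data known. The rule for names takes the 15 largest differences each way (groups without overlap, mean of at least 50), 4 genes a list by smallest p, all tested genes of lists of at most 12, the 10 smallest interaction p and the 5 most read genes listed for 1 sex. Lists are described by counts and medians, with no set test. Python 3.11.15, pandas 2.3.3, SciPy 1.17.1 and matplotlib 3.10.9 were used for the rest.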

Additional observations from a re-analysis of the deposited data

Results flagged for a closer look

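Single libraries stood apart from the other 4 of their group, by a gap that was large beside the group's range (Dixon's ratio above its 95% critical value), in 22 of 382 tests of the genes named. Chance flags about 1 in 20 such groups when they are independent, and the number alone is near that rate. Genes of 1 library are not independent, however, and many of the flags fell in male or female LPHC replicate 4. Whether chance accounts for the flags was therefore not tested. Values are normalised reads, each set against the other 4 libraries of its group. Male LPHC replicate 4 was high for Ilp6 1386 against 644 to 838, Egfr 2214 against 1791 to 1869 and TotA 31004 against 1463 to 8538, and likewise for TotB 47.6 against 4.90 to 13.1, TotC 18484 against 618 to 5686, TotX 531 against 67.4 to 137 and Diedel 1424 against 5.71 to 115. Female LPHC replicate 4 differed for CG10621 37297 against 29680.2 to 30709.7, S6k 3652 against 4313 to 4575, Mip 3133 against 2916 to 2965, ple 3679 against 5003 to 5538, Pdf 2170.2 against 1238 to 1489 and Rel 8347 against 10249 to 10449. The other flags were female LPHC replicate 1 for AttA 9520.4 against 3339 to 4197, female LPHC replicate 2 for Hsp68 6888 against 2566 to 3585, female LPHC replicate 5 for TotM 6919 against 3969.9 to 4421 and jhamt 119 against 58.0 to 75.0. Further ones were male LPHC replicate 1 for mle 3463 against 3859 to 4007 and to 14855 against 22782 to 25398, male LPHC replicate 2 for AkhR 797 against 1013 to 1099, male LPHC replicate 3 for AttA 350.4 against 89.4 to 134 and Ugt37A3 12.4 against 3.75 to 5.96.

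The sex difference on LPHC departed from that on HPLC for 5414 of 10362 genes (limma interaction contrast, adjusted p under 0.05). The 10 genes with the smallest p and a mean of 50 or more all had a larger female excess on LPHC. On the log2 scale the LPHC difference minus the HPLC difference was CG10621 −6.01, CG16898 −8.99, CG1979 −8.04, Lsp2 −12.49, Men −3.31, tobi −8.12, CG32444 −5.80, CG7675 −3.22, CG10361 −4.14 and CG9733 −5.44. Their adjusted p ran from 5.61e-20 to 6.64e-16.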

How the results depend on the processing

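Across the alternatives the count of genes past the threshold stayed within 1.5 times its value in each comparison: on LPHC edgeR called 7444 and DESeq2 7475 against 7432, and leaving out single libraries gave 7046 to 7315 on LPHC, 4561 to 5078 on HPLC and 5081 to 5632 for the interaction. The number as a replicate block gave 7149, 5004 and 5199 calls. Same-numbered male and female libraries correlated from −0.234 to 0.125 in their deviations, and those of different number from −0.165 to 0.241. So few pairs show no pairing by number and cannot exclude one. The block moved TotA (adjusted p = 0.0426) and TotX (adjusted p = 0.0168) past the limma threshold and no other named gene across it. Of 4197 values of named genes under an alternative, 4122 kept direction and side of the threshold. Calls were lost by 16 genes with the neuron-marker factor (VGAT, Gad1, fne, 5-HT1A, qvr, CCKLR-17D3, Zasp52 and del beside those given with their values above), by 3 at the same total with yolk protein genes (dsx, cwo, cyc), by 3 without them (dsx, cyc, Hsf), by 2 each with edgeR and robust moderation (TotM, Diedel) and by 1 with DESeq2 (TotM). TotA and TotX were called when all 20 libraries shared 1 fit. The direction split depends on the scaling. On LPHC 6309 genes were higher in males and 2246 in females at the same total with yolk protein genes, 5816 higher in males without them, and 326 and 7998 with the neuron-marker factor. On HPLC the same total without yolk protein genes gave 5067 and 1486 and the neuron-marker factor 155 and 7152; for the interaction that factor gave 500 positive and 4806 negative. With the neuron-marker factor, signs turned for msl-1 −0.56, msl-3 −0.033, mle −0.12, mof −0.16, Clamp −0.79, Flacc −0.12, fl(2)d −0.45, her −0.35, tra −0.32, fru −0.53, bab2 −0.81, Dh44 −0.33, rdgC −0.22, dco −0.58 and Pdf −0.19, and for the medians of sex determination genes −0.52, dosage compensation genes −0.16, genes of courtship and mating circuits −0.13, female germline −0.75, testis −0.64, photoreceptors −0.60, neuropeptides and peptide hormones −0.0043, neuropeptide receptors −0.044 and sleep amount and homeostasis −0.44. At the same total signs turned with and without yolk protein genes for JIL-1 (0.36 and 0.24), Sxl (0.27 and 0.16), to (0.39 and 0.28), Ilp3 (0.29 and 0.17) and the ribosome biogenesis median (0.32 and 0.20), and with them for Hsf (0.088) and the smell and taste median (0.016). At the same upper quartile to stood at 0.029. The female germline median, of 16 or 17 genes instead of 18 since some then failed the filter, ran from −0.088 to 0.59 and to from −0.19 to 0.055 without single libraries. The eggshell share difference (−0.000459 to −0.000303 percentage points without single libraries) lost its call (adjusted p = 0.0476, exact permutation test) without any library other than male replicate 4 and female replicates 4 and 5, with an adjusted p from 0.0635 to 0.0952. Why signs turned was not tested beyond the scaling itself, which moves all genes 1 way. At these depths a gene with a few reads in 1 sex has a wide counting interval, as for Lsp1alpha.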
